A study of Danio rerio with 4 samples.

Results

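Among zebrafish Gata1+ cells, 57 genes stood lower in the libraries labelled foxo3b MO than in the control MO libraries at both 24 and 48 hours post fertilization (hpf), out of 14417 genes in the deposited tables. They were chosen by their measured levels: an average of 2 FPKM or more over the 4 libraries, and a log2 fold of foxo3b MO over control MO, with 1 FPKM added to each value, of -0.8 or less at both stages. Genes whose names start with rpl, rps, mrp, cry, krt, cyp, hb, ndu, cox or atp5 were left out. FPKM is a fragment count divided by transcript length and by library size. At a log2 fold of -0.8 the control value, with 1 FPKM added, is 1.74 times that of foxo3b MO. The folds at 24 and at 48 hpf that made the selection are therefore given as a description.

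The 4 groups, with 1 library each, were foxo3b MO at 24 hpf, foxo3b MO at 48 hpf, control MO at 24 hpf and control MO at 48 hpf. All embryos carried the gata1:GFP transgene and had received either a foxo3b morpholino (MO) or a standard MO at the single-cell stage. A morpholino is an antisense oligonucleotide that blocks translation or splicing of its target, and GFP+ cells were sorted at each stage for RNA-seq. Groups without replicates have no measurable spread, so no test was made. The number of embryos per library and the binding site of the MO are not stated in the labels.

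Gata1 is the transcription factor that drives red cell differentiation, so GFP under its promoter marks red cell precursors. FOXO3, of which foxo3b encodes a fish form, is a transcription factor held in check by insulin and AKT signalling, and in mouse it acts on antioxidant genes and on red cell maturation. The genes described here come from many pathways: ribosome and mitochondrial proteins that every cell uses, globin, and products typical of lens, muscle, brain, liver and immune cells.

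Total FPKM was 1.57667e+06 and 1.50545e+06 in the foxo3b MO libraries at 24 and 48 hpf, against 2.28867e+06 and 2.4023e+06 in the control MO libraries. The files hold no counts, so the depth is unknown. The targeted gene foxo3b (chromosome 20, 32325663 to 32371617, Zv9) had 46.5 and 50.3 FPKM in the libraries labelled foxo3b MO at 24 and 48 hpf, against 6.40 and 38.1 FPKM in control MO. Its mRNA was thus higher, not lower, in the libraries labelled foxo3b MO, and every direction below rests on those labels. Whether the MO blocks translation or splicing is not stated, so this level does not measure the knockdown. The cause of the higher level was not tested. The erythroid gene gata1a itself stood at 6.30 and 4.33 FPKM in foxo3b MO and at 8.23 and 2.49 FPKM in control MO. Markers of tissues other than blood were abundant in all 4 libraries: 34 muscle genes summed to 37790 and 100207 FPKM in foxo3b MO, against 35508 and 186432 FPKM in control MO. A single gene, zgc:66286 (myl13, a myosin light chain), carries much of that sum, and without it the other muscle genes reached 19104 and 65444 FPKM in foxo3b MO against 22776 and 77179 FPKM in control MO. In pooled RNA, fewer cells of a type and less RNA per cell cannot be told apart.

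Of the 11088 genes that averaged 2 FPKM or more, 357 (3.22%) were at or below -0.8 at 24 hpf and 632 (5.7%) at 48 hpf. Both conditions held for 99 genes (0.893%), of which 42 were left out by name and 57 remained. In the opposite direction, 60 genes (0.541%) were at 0.8 or above at both stages. The 99 genes were 27.7% of those lower at 24 hpf and 15.7% of those lower at 48 hpf, so most genes lower at either stage were not lower at the other. Another 19 genes were lower at 24 hpf and at 0.8 or above at 48 hpf, and 50 showed the reverse.

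**Figure D1:**
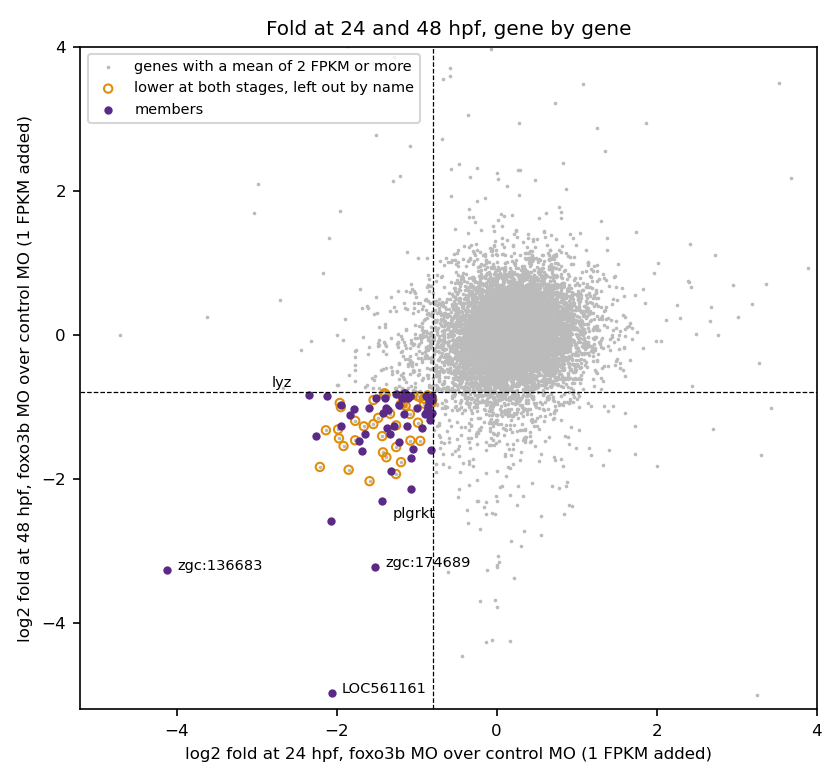
Log2 fold of foxo3b MO over control MO (1 FPKM added) at 24 hpf on the horizontal axis and at 48 hpf on the vertical axis, 1 point per gene averaging 2 FPKM or more. The 57 selected genes and the 42 left out by name fill the lower left corner marked by the dashed lines at -0.8; zgc:136683, zgc:174689 and LOC561161 lie farthest out, 17 other genes lie outside the axes, and 4 of the 57 are listed at 0 in a library, so that the added 1 FPKM sets their place.

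Over the 57 genes the median log2 fold was -1.18 at 24 hpf and -1.09 at 48 hpf, beside medians of 0.19 and -0.01 over all 11088 genes. The shortfall was larger at 24 hpf for 31 of them and larger at 48 hpf for 26, and 26 were at -1 or below at both stages. Just inside the threshold lay dnajc19 (log2 fold at 48 hpf of -0.81), mif and zgc:173770 (-0.81 each at 24 hpf). Just outside it lay nmt1b with -0.81 and -0.80, zgc:162858 with -0.80 and -1.12, and apoea with -0.95 and -0.79. The genes nearest the level limit were LOC567678, LOC797209 and LOC563738, with means of 2.04, 2.05 and 6.03 FPKM over the 4 libraries. Under it lay zgc:113070, si:dkeyp-73d8.9 and hamp1 with means of 1.80, 1.12 and 0.849 FPKM, and dropping the limit gave 63 genes.

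The count depends on the scale on which libraries are compared. With libraries scaled to equal total FPKM, which moves the median log2 fold of all genes by 0.48 at 24 hpf and 0.63 at 48 hpf, 7 of the 57 genes still met the rule and all 57 stayed below 0. Median-ratio scaling gave 72 genes, 54 of them among the 57.

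The level of a gene entered the rule through the limit of 2 FPKM and through the added 1 FPKM, which shrinks the folds of low genes, so the levels are given as a description. The means of the 57 genes over the 4 libraries had a median of 59.14 FPKM, against 15.2 FPKM over all 11088 genes, and 23 of them (40.4%) had a mean of 100 FPKM or more, against 11.1%. Together they held 1.14% and 1.35% of total FPKM in foxo3b MO at 24 and 48 hpf, against 2.26% and 1.80% in control MO.

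**Figure D2:**
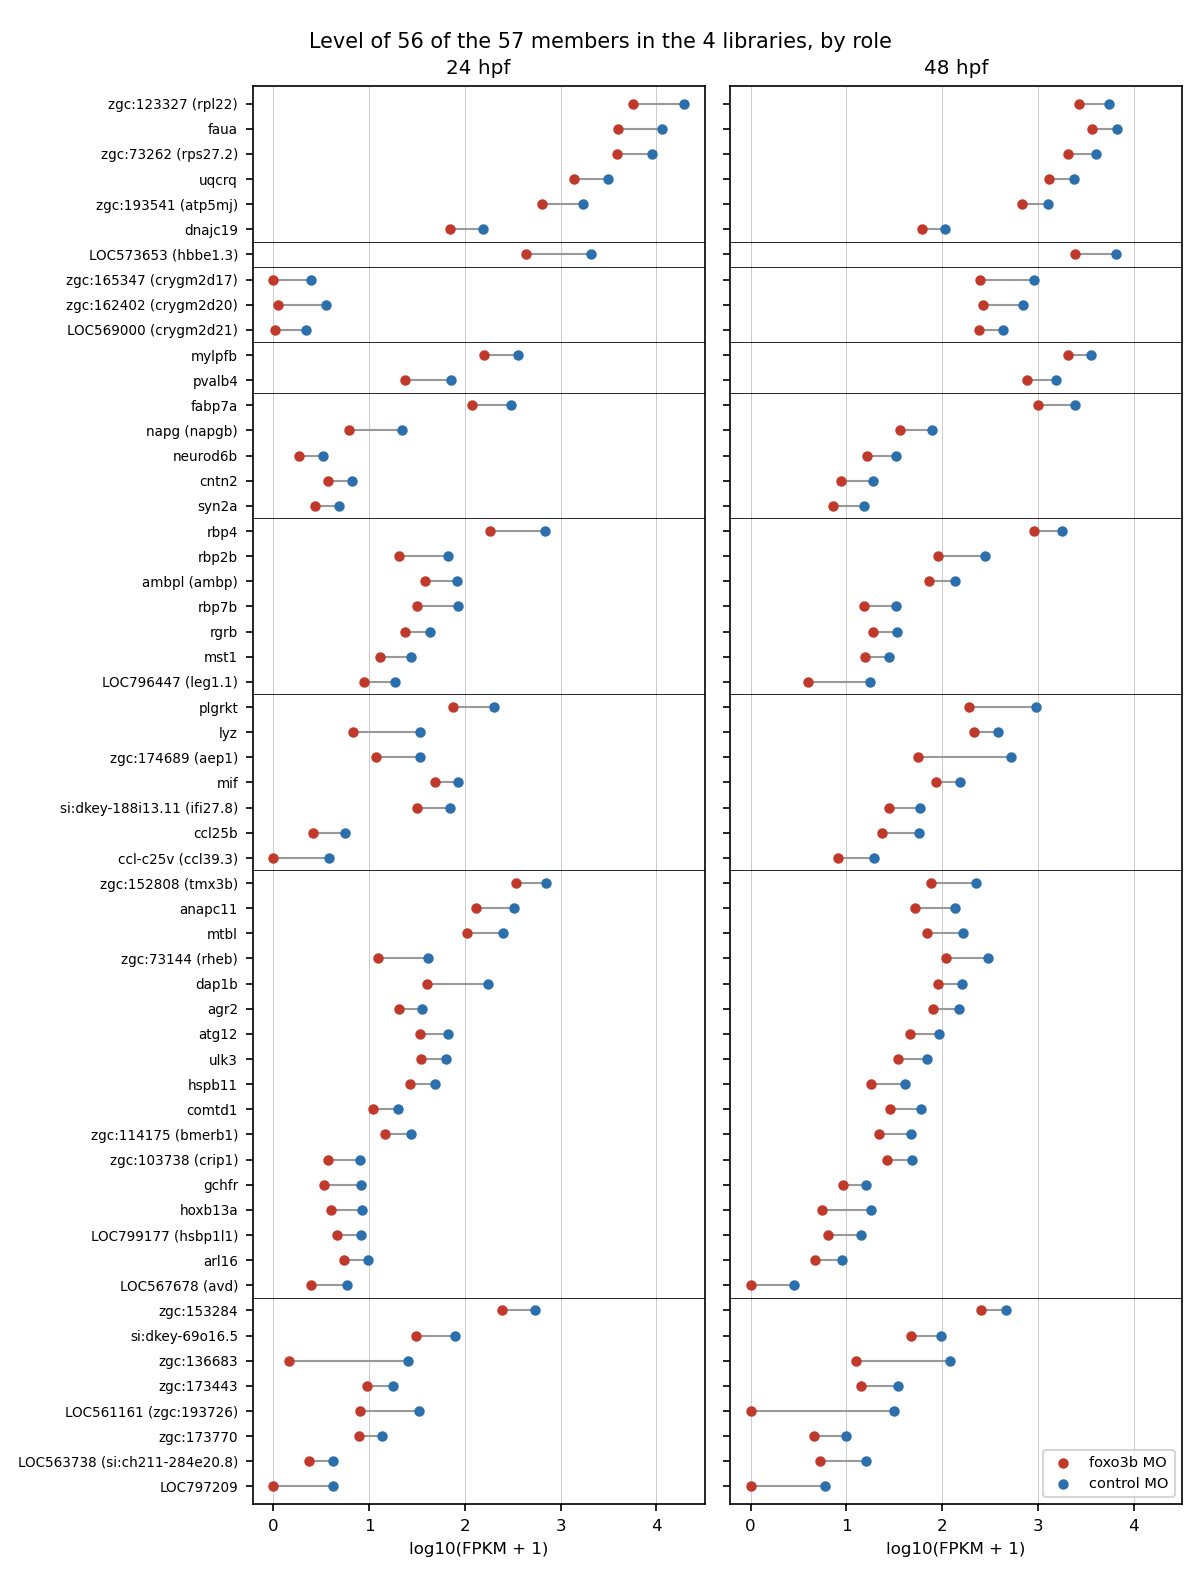
Levels of 56 of the 57 genes as log10(FPKM + 1), red for foxo3b MO and blue for control MO, at 24 hpf in the left panel and at 48 hpf in the right, with genes grouped by role and current symbols in brackets. Every red point lies left of its blue partner, which is what the rule selects; the 3 lens crystallins and the neural and muscle genes shift to the right between stages in both groups.

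Ribosomal and mitochondrial proteins were the products of 6 genes, among them the 3 with the highest mean level of the 57, and each of the 6 had its larger shortfall at 24 hpf. Summed, they reached 15613 FPKM in foxo3b MO and 44865 FPKM in control MO at 24 hpf, and 10468 against 20075 FPKM at 48 hpf. zgc:123327, now named rpl22 and coding for a protein of the large ribosomal subunit, had 5659 FPKM in foxo3b MO against 19525 FPKM in control MO at 24 hpf, and 2715 against 5547 FPKM at 48 hpf. Its log2 folds were -1.79 and -1.03, and it was the most abundant of the 57 genes. Its locus is on chromosome 11 at 30529510 to 30534710 of Zv9.

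faua encodes a small-subunit ribosomal protein fused to a ubiquitin-like protein that is cleaved off. It had 4001 and 3652 FPKM in foxo3b MO at 24 and 48 hpf, against 11395 and 6727 FPKM in control MO, so that both foxo3b MO values lay under both control values. Its paralog faub stood at 80.2 and 35.2 FPKM in foxo3b MO and at 89.1 and 39.0 FPKM in control MO, with log2 folds of -0.15 and -0.14. zgc:73262, now rps27.2, codes for a small-subunit protein and had 3852 and 2050.1 FPKM in foxo3b MO against 8943 and 4032 FPKM in control MO. Its relative zgc:109888, now rps27.1, met the threshold at 24 hpf only, with log2 folds of -1.07 and -0.40. A further relative, zgc:136826 (rps27l), was higher in foxo3b MO, at 1994 and 414 FPKM against 727 and 292 FPKM. By contrast rpl22l1, a relative of rpl22 that is left out by name, had log2 folds of -1.85 and -1.87. Of 8 measured rps27, rpl22 and fau genes, the 3 selected included, 6 met the threshold at 24 hpf and 4 at 48 hpf. The shares of all genes were 3.22% and 5.7%.

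The files name zgc:123327 and zgc:73262 by older identifiers, so the left-out prefixes did not apply to them, and the prefixes do not cover faua. Among genes that the rule leaves out by name, 11 of 36 with the prefix rps (30.6%) and 9 of 44 with the prefix rpl (20.5%) were lower at both stages, against 57 of 10808 other names (0.527%). The prefix hb had 5 of 9 lower at both, cry 10 of 40, cox 4 of 20 and ndu 3 of 30. No gene named mrp (48 measured), krt (6), cyp (33) or atp5 (14) was. A current symbol with a left-out prefix applied to 7 of the 57: zgc:123327, zgc:73262, LOC573653, zgc:193541, zgc:165347, zgc:162402 and LOC569000.

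Respiratory chain genes were represented by uqcrq, a subunit of complex III, which had 1388 and 1305 FPKM in foxo3b MO at 24 and 48 hpf against 3148 and 2401 FPKM in control MO. Of 8 complex III genes measured, uqcrb was also below the threshold at 24 hpf, with 660.2 FPKM against 1500 FPKM, and uqcrq alone was at 48 hpf. zgc:193541, now atp5mj, codes for a small subunit of the ATP synthase and had 644 and 685 FPKM in foxo3b MO against 1700 and 1261 FPKM in control MO. Of 19 ATP synthase genes, 5 met the threshold at 24 hpf and zgc:193541 alone at 48 hpf. dnajc19 encodes a cochaperone of the motor that pulls proteins into mitochondria; it had 69.4 and 60.9 FPKM in foxo3b MO against 154 and 107 FPKM in control MO. It was the only one of 22 mitochondrial import genes at or below the threshold at either stage. The rule selected dnajc19, uqcrq and zgc:193541, so each is in its own count by design. At 3.22% and 5.7% of all genes at 24 and 48 hpf, a single gene says little for lists of this size.

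One globin gene was selected. LOC573653, now hbbe1.3, encodes an embryonic beta globin, which carries oxygen in the earliest red cells. It had 435 FPKM in foxo3b MO against 2080.2 FPKM in control MO at 24 hpf, and 2464 against 6508 FPKM at 48 hpf, for log2 folds of -2.25 and -1.40. It lies with 4 other entries at a single locus, chromosome 3 at 55965768 to 55983958, where all 5 were below the threshold at 24 hpf and 3 at 48 hpf. Both counts include LOC573653, which the rule selected. Of all 11088 genes, 3.22% were below the threshold at 24 hpf and 5.7% at 48 hpf. Summed over this locus, globin transcripts reached 1927 and 10099 FPKM in foxo3b MO at 24 and 48 hpf, against 8048 and 22068 FPKM in control MO. The entry that went the other way at 48 hpf was MGC173646, with 1953 FPKM in foxo3b MO against 1401 FPKM in control MO, after 195 against 1279 FPKM at 24 hpf. The neighbour hbae3, an embryonic alpha globin gene whose locus starts 14323 bases away, had 928 and 3710.1 FPKM in foxo3b MO against 2485 and 11506 FPKM in control MO.

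Among other red cell genes, 2 of 14 for heme synthesis were below the threshold at 24 hpf and 0 at 48 hpf, 3 and 2 of 15 for the red cell membrane and gas transport, and 0 and 0 of 14 erythroid transcription factor and progenitor genes. None of them was below it at both stages, which at 0.893% of all genes says little for lists of this size. The shares of all 11088 genes below the threshold were 3.22% at 24 hpf and 5.7% at 48 hpf.

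Lens crystallins are the proteins that fill lens fibre cells. The 3 selected here, all gamma M crystallins of fish, were near 0 at 24 hpf and high at 48 hpf in both groups. zgc:162402 (crygm2d20) had 0.132 FPKM in foxo3b MO against 2.52 FPKM in control MO at 24 hpf, and 268 against 697 FPKM at 48 hpf. LOC569000 (crygm2d21) had 0.0423 against 1.21 FPKM at 24 hpf and 239 against 430.2 FPKM at 48 hpf, foxo3b MO first. zgc:165347 (crygm2d17) was listed at 0 in foxo3b MO at 24 hpf against 1.5 FPKM in control MO, and had 245 against 911 FPKM at 48 hpf. The 24 hpf folds of these genes therefore rest on levels of a few FPKM.

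All 3 share a locus of 271069 bases, chromosome 9 at 23101756 to 23372825, with 22 other entries. Of the 21 entries there that averaged 2 FPKM or more, all 21 were below the threshold at 48 hpf and 10 at 24 hpf. Both counts include the 3 crystallins that the rule selected. Among all 11088 genes, 5.7% were below it at 48 hpf and 3.22% at 24 hpf. The locus summed to 6.87 FPKM in foxo3b MO against 34.8 FPKM in control MO at 24 hpf, and to 4943 against 14179 FPKM at 48 hpf. These genes are near copies of each other, so how reads were divided among them is uncertain and the sum is firmer than any single entry. Lens and eye markers other than crystallins behaved less uniformly: 2 of 19 were below the threshold at 24 hpf, 6 at 48 hpf and none at both, with summed levels of 152 and 739 FPKM in foxo3b MO and 230 and 789 FPKM in control MO.

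Muscle was represented by mylpfb, a light chain of fast skeletal myosin, and pvalb4, a parvalbumin that buffers calcium in fast muscle. mylpfb had 159 and 2052 FPKM in foxo3b MO at 24 and 48 hpf, against 355 and 3609 FPKM in control MO. Its paralog mylpfa was higher in all 4 libraries and differed less, with 1385 and 5822 FPKM in foxo3b MO against 1874 and 6420 FPKM in control MO. pvalb4 had 22.8 and 765 FPKM in foxo3b MO against 70.8 and 1546 FPKM in control MO, log2 folds of -1.59 and -1.01. All 9 measured parvalbumin genes were below 0 at 24 hpf and 8 at 48 hpf (7 and 4 when scaled to equal totals), and 5 and 2 of them met the threshold at 24 and 48 hpf. These counts include pvalb4, which the rule selected. The medians over all 11088 genes were 0.19 and -0.01, so a log2 fold below 0 was common at 48 hpf. Over 34 muscle markers, 10 met the threshold at 24 hpf and 3 at 48 hpf, beside 3.22% and 5.7% of all 11088 genes. Both counts include mylpfb and pvalb4, which the rule selected. The median log2 folds of the 34 were -0.32 and -0.09. No muscle marker was at 0 in any library.

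The neural group held 5 genes, among them napg, which is not specific to neurons. All 5 were at least 2-fold higher at 48 than at 24 hpf in both groups. fabp7a, a fatty acid binding protein of radial glia and neural progenitors, had 118 and 999 FPKM in foxo3b MO at 24 and 48 hpf, against 306 and 2457 FPKM in control MO. Its log2 folds were -1.37 and -1.30, an almost equal shortfall at both stages. Its paralog fabp7b was slightly higher in foxo3b MO, at 14.3 and 39.5 FPKM against 8.67 and 32.9 FPKM. Of 9 fatty acid binding protein genes, 3 met the threshold at 24 hpf and 5 at 48 hpf, beside 3.22% and 5.7% of all 11088 genes. The single one at both was fabp7a, which the rule selected.

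neurod6b, a basic helix-loop-helix factor of differentiating neurons, had 0.836 and 15.4 FPKM in foxo3b MO against 2.33 and 32.3 FPKM in control MO. All 4 neurod genes measured were below 0 at both stages (2 and 3 of them when scaled to equal totals), and neurod6b alone met the threshold at 24 hpf. At 48 hpf 3 of the 4 met it, beside 3.22% of all genes at 24 hpf and 5.7% at 48 hpf. These counts include neurod6b, which the rule selected. A log2 fold below 0 was common among all 11088 genes, above all at 48 hpf (medians of 0.19 and -0.01). cntn2, an adhesion molecule of axons, had 2.70 and 7.79 FPKM in foxo3b MO against 5.64 and 17.8 FPKM in control MO. syn2a, a synapsin that tethers synaptic vesicles, had 1.70 and 6.29 FPKM against 3.92 and 14.2 FPKM. napg, a cofactor of the machinery that disassembles vesicle fusion complexes and not specific to neurons, had 5.24 and 35.3 FPKM in foxo3b MO against 21.3 and 77.6 FPKM in control MO. Neural markers as a list stood at a median log2 fold of -0.23 at 24 hpf and -0.36 at 48 hpf over 31 genes, none of them at 0, with summed levels of 1973 and 4278 FPKM in foxo3b MO against 2729 and 6399 FPKM in control MO, and without fabp7a of 1855 and 3279 FPKM against 2424 and 3942 FPKM.

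Retinoid and liver products formed a group of 7. rbp4, the carrier that takes retinol from liver and yolk to tissues through plasma, had 181 and 919 FPKM in foxo3b MO at 24 and 48 hpf, against 695 and 1800.5 FPKM in control MO. rbp2b, a cellular retinol-binding protein, had 19.8 and 90.2 FPKM against 65.6 and 279 FPKM, and rbp7b, another of that family, 30.9 and 14.4 FPKM against 84.5 and 31.7 FPKM. Their log2 folds at 24 hpf were -1.94, -1.68 and -1.42. Of the 6 retinol-binding protein genes measured, these 3 met the threshold at both stages, which the rule that selected them requires. Outside the selection, rbp4l met it at 24 hpf, with 42.5 against 120 FPKM, and rbp2a at 48 hpf, with 67.3 against 199 FPKM. Among all 11088 genes, 3.22% met it at 24 hpf and 5.7% at 48 hpf. rbp1a was lower at 24 hpf and higher at 48 hpf, with 78.6 and 141 FPKM in foxo3b MO against 121 and 99.2 FPKM in control MO.

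rgrb, an opsin-related protein that binds retinal in the eye, had 22.7 and 17.9 FPKM in foxo3b MO against 42.6 and 33.1 FPKM in control MO. ambpl (now ambp), the precursor of a secreted liver microglobulin and a protease inhibitor, had 37.7 and 72.2 FPKM against 82.3 and 134 FPKM. mst1, a hepatocyte growth factor-like protein, had 12 and 14.5 FPKM against 26.5 and 27.0 FPKM. LOC796447 (leg1.1), a liver-enriched secreted protein of fish, had 7.93 and 2.98 FPKM in foxo3b MO against 17.8 and 16.51 FPKM in control MO, with its larger shortfall at 48 hpf (log2 fold of -2.14). Of 31 liver and yolk markers, 9 met the threshold at each stage and 4 at both (rbp4, rbp2b, ambpl and fabp7a, the last also on the neural list). The rule selected those 4. Among all 11088 genes, 3.22% met it at 24 hpf, 5.7% at 48 hpf and 0.893% at both. The list's median log2 folds were -0.49 and -0.30. fabp10a, a defining liver gene with the lowest log2 fold of the list at 48 hpf, was listed at 0 in foxo3b MO at both stages. It had 0.355 and 21.1 FPKM in control MO. At 48 hpf 21 of the 31 were below 0 (11 when scaled to equal totals). Others were higher in foxo3b MO, among them apoeb with 3238 against 1990 FPKM and apobl with 1648 against 1126 FPKM.

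The medians of the liver, muscle and brain marker lists turned positive with equal totals but not with median-ratio scaling. Scaled to equal totals, they were 0.01 and 0.35 for liver and yolk at 24 and 48 hpf. For muscle they were 0.22 and 0.57, and for neural genes 0.27 and 0.31. With median-ratio scaling they were -0.72 and -0.28 for liver and yolk. For muscle they were then -0.55 and -0.07, and for neural genes -0.46 and -0.34. The part that the makeup of the sorted cells plays in the values of the selected genes was not tested.

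Defence genes also numbered 7. lyz, the lysozyme of macrophages and neutrophils, had 5.75 FPKM in foxo3b MO against 33.3 FPKM in control MO at 24 hpf, and 214 against 382 FPKM at 48 hpf. Its log2 folds were -2.34 and -0.83, so the gap narrowed as its level climbed in both groups. At 48 hpf 417 of all 11088 genes were at 0.8 or above. The shares of all genes below the threshold were 3.22% at 24 hpf, 5.7% at 48 hpf and 0.893% at both stages. Of 24 myeloid markers only lyz, which the rule selected for that, was below the threshold at both. The myeloid list had 3 genes below it at 24 hpf, 1 at 48 hpf and 6 at 0.8 or above at 48 hpf, and summed to 515 and 929 FPKM in foxo3b MO against 422 and 831 FPKM in control MO. Without its most abundant gene, ctssb.1, a cathepsin, the sums were 173 and 815 FPKM in foxo3b MO against 230.2 and 810.4 FPKM in control MO, so that the direction at 24 hpf turned. On the myeloid list, cpa5, a carboxypeptidase of mast cells, was listed at 0 in foxo3b MO at 24 hpf. Its level was near 0 in control MO too, at 0.0758 FPKM. At 48 hpf it had 8.48 FPKM in foxo3b MO against 10.6 FPKM in control MO. The gene is also on the list of pancreas markers.

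plgrkt, a membrane receptor for plasminogen, showed the reverse course, with a log2 fold of -1.43 at 24 hpf and -2.31 at 48 hpf. It had 73.7 and 189.7 FPKM in foxo3b MO against 200.1 and 947 FPKM in control MO. The chemokine gene ccl25b had 1.58 and 22.8 FPKM in foxo3b MO against 4.59 and 56.4 FPKM in control MO. A second chemokine gene, ccl-c25v (now ccl39.3), was listed at 0 in foxo3b MO at 24 hpf against 2.86 FPKM in control MO, and had 7.11 against 18.6 FPKM at 48 hpf. The 6 measured ccl genes did not share a direction, since zgc:195195 (ccl20a.3) was higher in foxo3b MO, at 16.47 and 20.2 FPKM against 7.25 and 0.882 FPKM.

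mif, a cytokine released by many cell types, lay just inside the threshold with 47.8 and 84.7 FPKM in foxo3b MO against 84.3 and 153 FPKM in control MO. si:dkey-188i13.11 (ifi27.8), of an interferon-induced family, had 30.3 and 26.7 FPKM against 69.1 and 58.4 FPKM, and the other measured gene of the family, zgc:123068 (ifi27.1), 5.05 and 4.01 FPKM against 7.20 and 8.39 FPKM. zgc:174689 (aep1), an aerolysin-like pore-forming protein, is taken up with the shared loci.

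A further 18 genes act in cell regulation or single functions. The most abundant was zgc:152808 (tmx3b), of a family of thioredoxin-related membrane proteins, with 343 and 74.9 FPKM in foxo3b MO at 24 and 48 hpf against 705 and 228 FPKM in control MO. It was lower at 48 than at 24 hpf in both groups. anapc11, the RING subunit of the anaphase-promoting complex that marks mitotic proteins for destruction, had 128 and 51.6 FPKM in foxo3b MO against 325 and 136 FPKM in control MO. The other 6 genes of this complex did not meet the threshold at either stage.

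atg12, a ubiquitin-like protein that autophagy conjugates to its machinery, had 32.8 and 45.0 FPKM in foxo3b MO against 66.5 and 92.3 FPKM in control MO. It was the only one of 13 atg genes that met the threshold at both stages, and the rule selected it for that. At 0.893% of all genes, the count says little for a list of this size. ulk3, of the kinase family that starts autophagy and also acts in Hedgehog signalling in mammals, had 33.8 and 33.8 FPKM against 62.0 and 68.4 FPKM, but its locus in the files spans only 314 bases of an unplaced scaffold (Zv9_NA982). dap1b, related to a regulator of cell death and autophagy, had 39.1 and 89.3 FPKM in foxo3b MO against 173 and 161 FPKM in control MO. It was thus more than 2-fold higher at 48 hpf in foxo3b MO and nearly level between stages in control MO.

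mtbl, a metallothionein-like gene, had 103 and 68.9 FPKM in foxo3b MO against 252 and 166 FPKM in control MO. zgc:73144, currently assigned to rheb, a small GTPase that activates mTOR, had 11.5 and 108 FPKM in foxo3b MO against 39.9 and 304 FPKM in control MO. A separate entry named rheb on chromosome 6 stood at 81.7 and 108 FPKM in foxo3b MO and at 68.0 and 64.6 FPKM in control MO, so the symbol covers opposite directions and is uncertain. Summed under that symbol, the log2 folds were -0.21 and -0.76, which do not meet the rule. agr2, a disulfide isomerase of secretory epithelia, had 19.6 and 79.4 FPKM in foxo3b MO against 35.0 and 149.5 FPKM in control MO.

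hoxb13a, a posterior Hox gene, had 3.003 and 4.56 FPKM in foxo3b MO against 7.37 and 17.2 FPKM in control MO. Of 20 measured genes of the HoxB clusters and of paralogue group 13, it alone met the threshold at 24 hpf, and 2 did at 48 hpf. Both counts include hoxb13a, which the rule selected. Among all genes 3.22% and 5.7% met it, so the counts say little for a list of this size. gchfr, which regulates the first enzyme of tetrahydrobiopterin synthesis, had 2.41 and 8.18 FPKM in foxo3b MO against 7.17 and 15.2 FPKM in control MO. zgc:103738 (crip1), a LIM-domain protein, had 2.72 and 25.9 FPKM against 7.10 and 47.7 FPKM.

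hspb11, a name that a second entry on chromosome 5 also carries in current annotation, had 26.05 and 17.2 FPKM in foxo3b MO against 47.3 and 40.4 FPKM in control MO. That second entry, zgc:158640, had log2 folds of -0.33 and -0.07. The sum of both entries had -0.74 and -0.76, which do not meet the rule. LOC567678 (avd), an avidin gene, had 1.5 FPKM in foxo3b MO against 4.85 FPKM in control MO at 24 hpf, and was listed at 0 against 1.81 FPKM at 48 hpf. A further 4 of this group, comtd1, zgc:114175 (bmerb1), LOC799177 (hsbp1l1) and arl16, had log2 folds between -0.89 and -0.83 at 24 hpf and between -1.13 and -0.93 at 48 hpf.

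No role is given here for 8 genes, and the most extreme values are among them. zgc:136683 had 0.468 and 11.6 FPKM in foxo3b MO at 24 and 48 hpf, against 24.4 and 121 FPKM in control MO. Its log2 folds, -4.11 and -3.27, were the lowest among the 57 at 24 hpf and the lowest at 48 hpf among those above 0 in every library. It has a locus of its own on chromosome 15 at 24378250 to 24406858. LOC561161 had 6.999 FPKM in foxo3b MO against 32.4 FPKM in control MO at 24 hpf, and was listed at 0 against 30.6 FPKM at 48 hpf, over a locus of 678 bases on chromosome 4 at 18977224 to 18977902. zgc:153284 was the most abundant of the 8, with 244 and 252 FPKM in foxo3b MO against 544 and 464 FPKM in control MO. It is 3265 bases from rps12, which was also lower at both stages, with 5362 and 2409 FPKM in foxo3b MO against 14023 and 4285 FPKM in control MO. si:dkey-69o16.5 had 29.9 and 45.8 FPKM against 78.1 and 95.3 FPKM, and zgc:173443 had 8.42 and 13.3 FPKM against 17.0 and 34.0 FPKM.

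The comparison between stages was not itself part of the rule, although it uses the same libraries and is tied to it. For each gene, the stage change in foxo3b MO minus that in control MO equals the log2 fold at 48 hpf minus that at 24 hpf. The rule held both of these folds at -0.8 or less, so the likeness of the stage changes in foxo3b MO and control MO is in part a product of the selection. The level limit is a mean over both stages. Genes near 0 at 24 hpf, such as the 3 lens crystallins, therefore passed it through their 48 hpf levels. Their rise is in part a product of the limit, which all 11088 genes passed too. At 48 hpf 26 of the 57 genes (45.6%) were at least 2-fold higher than at 24 hpf in foxo3b MO, beside 15.3% of all 11088 genes. In control MO 25 (43.9%) were, beside 19.7%, and 24 were in both groups. A level at least 2-fold lower at 48 hpf was seen for 7 in foxo3b MO (12% of all genes) and 6 in control MO (9.2%), 5 of them in both. The median log2 fold between stages over the 57 was 0.60 in foxo3b MO and 0.78 in control MO, beside -0.06 and 0.15 over all genes. The 42 genes left out by name had medians of -0.38 and -0.52. With no names left out, the medians were 0.45 and 0.28, so the size of the rise depends on the names left out too. Among the 57, those 2-fold higher in both groups included all 3 lens genes, both muscle genes and all 5 of the neural group, napg included. None of the 6 ribosomal and mitochondrial genes was 2-fold higher at 48 hpf in either group.

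**Figure D3:**
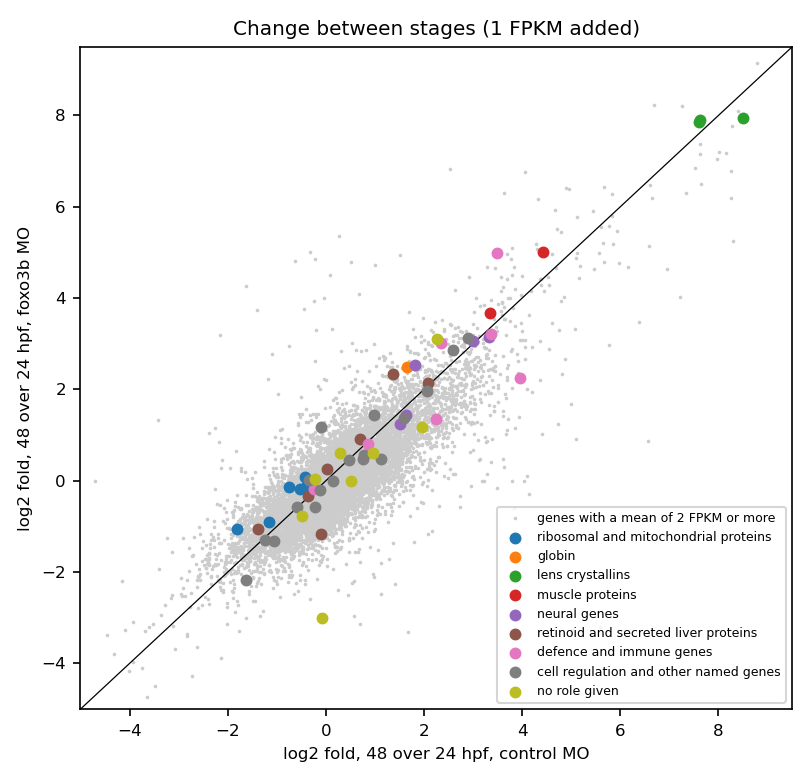
Log2 fold of 48 over 24 hpf (1 FPKM added) in foxo3b MO on the vertical axis and in control MO on the horizontal axis, with the 57 genes coloured by role and all other genes averaging 2 FPKM or more in grey. Most coloured points lie along the line of equal change, which the rule in part sets. The 3 lens crystallins are at its upper end. LOC561161, listed at 0 in foxo3b MO at 48 hpf, lies lowest, and 9 genes lie outside the axes.

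A locus that another entry of the files has too was given for 14 of the 57 genes (24.6%), beside 934 of the 11088 genes (8.42%). The 14 fall on 12 loci, and apart from the crystallin locus no locus holds more than 1 of them. At the loci of mtbl, rgrb, dap1b and napg, every other entry averaging 2 FPKM or more was above the threshold at both stages. At the locus of syn2a, 13 entries were measured; tnnc1a, a troponin gene, met the threshold at 24 hpf and zgc:136569 (slc6a1a), a GABA transporter gene, at 48 hpf.

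LOC797209, zgc:173770 and zgc:174689, picked after their values were seen, each share a locus with a gene that was higher in foxo3b MO at 48 hpf; some entries at the other shared loci were higher too. LOC797209 stood under 0.001 FPKM in foxo3b MO at both stages, against 3.21 and 4.996 FPKM in control MO. Its partner apex2, a DNA repair nuclease gene, had 3.68 and 6.71 FPKM in foxo3b MO against 0.286 and 0.00321 FPKM in control MO. Together they came to 3.68 and 6.71 FPKM in foxo3b MO against 3.50 and 4.999 FPKM in control MO. zgc:173770 had 6.88 and 3.61 FPKM against 12.8 and 8.83 FPKM, while ggps1, which makes an isoprenoid precursor, had 12.8 and 8.25 FPKM against 7.67 and 3.81 FPKM. Their sum was 19.7 and 11.9 FPKM in foxo3b MO and 20.5 and 12.6 FPKM in control MO.

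The locus of zgc:174689 is on chromosome 7 at 9052834 to 9852976 and holds 13 entries, among them zgc:174689 and zgc:113413, which now carry the same symbol, aep1. zgc:174689 had 10.9 and 55.4 FPKM in foxo3b MO against 33.0 and 524 FPKM in control MO. zgc:113413 had 31.0 and 821 FPKM in foxo3b MO against 35.8 and 522 FPKM in control MO. Summed under the current symbol, aep1 stood at 41.9 and 877 FPKM in foxo3b MO against 68.9 and 1046 FPKM in control MO, log2 folds of -0.70 and -0.25, which do not meet the rule. For LOC563738, whose current symbol is also on another entry at its locus, the sum did meet it, with 1.99 and 7.65 FPKM against 4.26 and 21.4 FPKM. Without the 14 genes that share a locus, 43 genes remained.

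**Figure D4:**
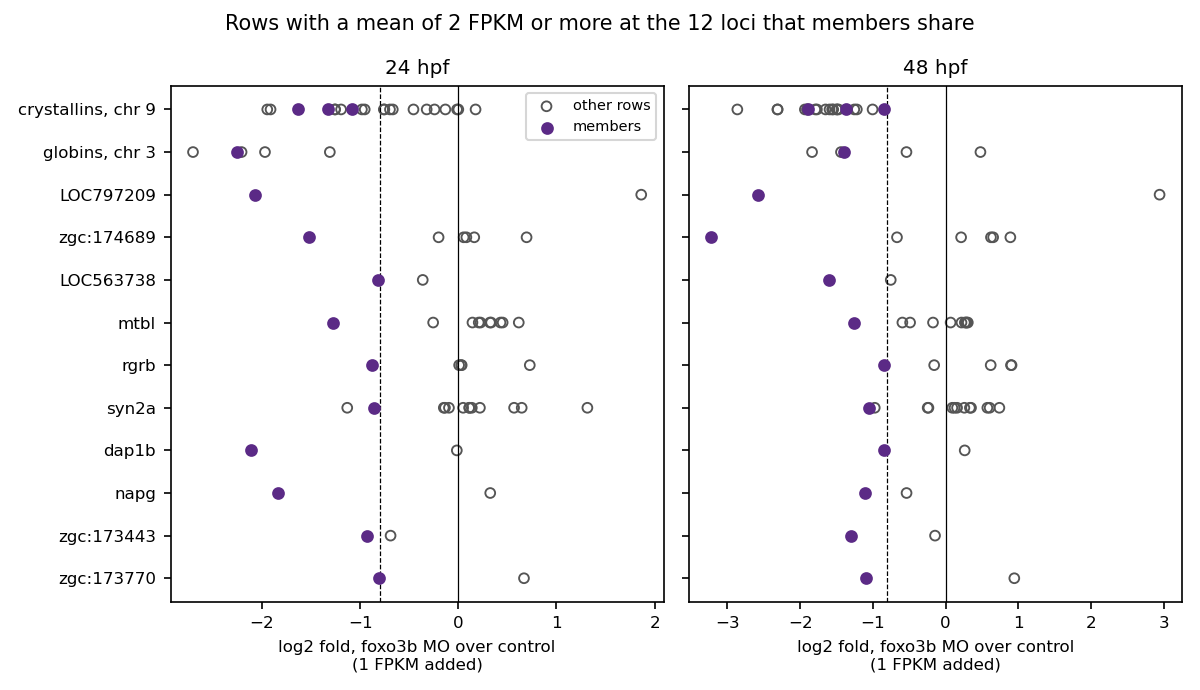
Log2 fold of foxo3b MO over control MO (1 FPKM added) at 24 hpf (left) and 48 hpf (right) for each entry averaging 2 FPKM or more at the 12 shared loci, filled for the selected genes and open for the others. At the crystallin locus every open circle lies left of the dashed line at -0.8 at 48 hpf, while apex2, on the line of LOC797209, lies far to the right.

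The 57 genes lie on 22 of the 25 chromosomes, with at most 5 on a chromosome (chromosome 9), and 3 lie on unplaced scaffolds. Measured entries within 100 kb were counted for each selected gene, so an entry near more than 1 of them counts again. Counted so, 51 of the 57 had such neighbours, 180 in sum, and 178 of those were not lower at both stages. The exceptions were hbae3 and rps12, a share near the 0.893% of all genes, and no selected gene lay within 100 kb of another outside a shared locus.

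Loci of the selected genes were short. The median width was 5208 bases, against 14632 bases over all 11088 genes, and for the 43 with a locus of their own 4039 against 13378 bases. A locus under 1 kb was given for 6 of the 57 (10.53%) and for 142 of all genes (1.28%); ulk3, ccl-c25v, LOC561161, rbp7b and hspb11 are among the 6. When genes with a locus of their own were split into 5 bins of equal size by width, 47 genes (2.31%) of the narrowest bin were lower at both stages, and 20 (0.985%), 4 (0.197%), 3 (0.148%) and 1 (0.0492%) of the wider bins in order. The selected genes among them numbered 28, 10, 1, 3 and 1. Over all genes of a bin, the median log2 fold at 24 hpf followed width, from -0.00 in the narrowest bin through 0.10, 0.19 and 0.27 to 0.37 in the widest, whereas at 48 hpf it stayed between -0.06 and 0.04. The median level of genes ran the other way, at 20.03 FPKM in the narrowest bin and 10.4 FPKM in the widest. Width moves with the selection, and its part in the folds was not tested.

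**Figure D5:**
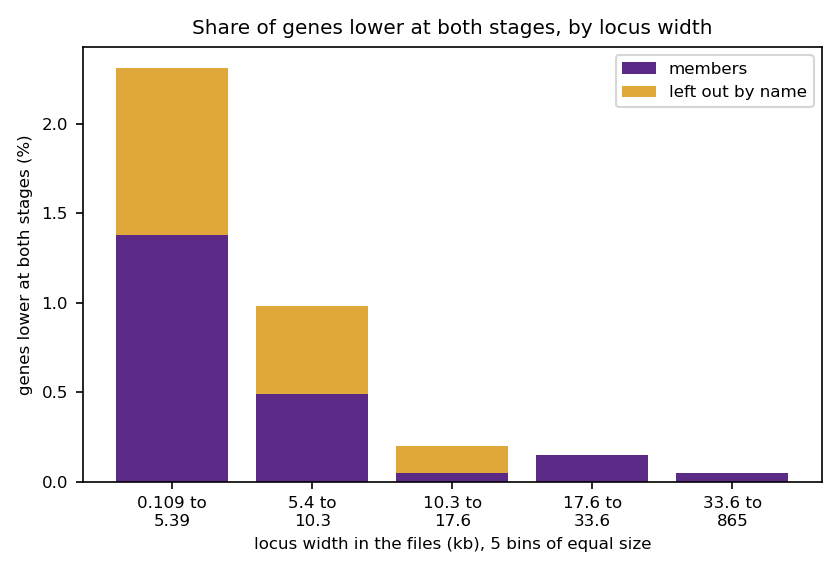
Percentage of genes lower at both stages, stacked as selected genes and genes left out by name, in 5 bins of locus width (kb) with about equal numbers of genes, all with a locus of their own and averaging 2 FPKM or more. The bars drop from 2.31% in the narrowest bin to 0.0492% in the widest.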

How the data were processed

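RNA-seq of sorted Gata1+ cells gave 4 libraries, 1 for each MO and stage. FPKM values were deposited by the authors for 14417 genes with a locus each; reads were processed with TopHat and Cufflinks on Zv9, per the submitters' processing notes. Neither versions nor the annotation are stated there. FPKM holds no counts, so depth is unknown and no interval is given.

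The 4 tables were joined by gene. Log2 folds used a pseudocount of 1 FPKM, which understates the change of low genes, and no rescaling. Current symbols came from a RefSeq gene table (GRCz12tu, used for names only) for 14201 entries and for 56 of the 57 genes. Loci are Zv9 as the files give them, and width is end minus start. Groups of 1 library allow no test.

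The genes, the 26 gene lists and the role groups were chosen with earlier results of these data known, and the role groups and families after values were seen. Genes were named for high level, low fold, list membership, a shared locus or nearness to the threshold, and others by role; 1 of the 57 is counted but not reported singly here. Alternatives changed the pseudocount (0.1 or 5 FPKM), the floor (none or 10 FPKM), the scaling (median ratio or equal totals) or left out genes at 0 or at shared loci. The steps were tested on simulated data. Python 3.11.15, numpy 2.4.6, pandas 2.3.3 and matplotlib 3.10.9 were used.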

Additional observations from a re-analysis of the deposited data

Results flagged for a closer look

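For 4 of the genes reported the change between stages had opposite signs in foxo3b MO and in control MO. The sign in foxo3b MO says little for zgc:193541, zgc:153284 and LOC797209, where the change was close to 0. With 1 library per group these differences were not tested. dap1b had a log2 fold of 48 over 24 hpf of 1.17 in foxo3b MO and -0.10 in control MO. zgc:193541 (atp5mj) had 0.0877 in foxo3b MO and -0.43 in control MO, and zgc:153284 had 0.0422 and -0.23. LOC797209 had -0.00013 in foxo3b MO, where it was near 0 at both stages, and 0.51 in control MO.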

How the results depend on the processing

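No value of the 57 genes changed sign under any alternative run, but none could. Each was chosen at -0.8 or less, the scalings shift folds by less than 0.8, and a pseudocount cannot turn a sign. The highest log2 fold among the 57 genes was -0.14 with equal totals, -0.30 with a pseudocount of 5 FPKM and -0.79 with median-ratio scaling. Of their 114 log2 folds, 75, 36 and 3 lay above -0.8 under those 3 settings. The number of genes selected stayed within 1.5-fold of 57 with no floor (63), a floor of 10 FPKM (45) and median-ratio scaling (72). It did so too with genes at 0 left out (53) and shared loci left out (43). The 72 genes were 54 of the 57 and 18 others. A pseudocount of 0.1 FPKM gave 101, including all 57, with median stage changes of 1.83 in foxo3b MO and 1.83 in control MO. A pseudocount of 5 FPKM gave 29, with 216 genes lower at 24 hpf, 342 at 48 hpf and 63 at both, and a control MO stage change of 0.27. Equal totals gave 7 (LOC561161, plgrkt, rbp2b, zgc:136683, zgc:165347, zgc:174689 and zgc:73144), with 119, 157 and 16 genes lower, and stage changes of 2.33 and 2.18 over those 7. Median-ratio scaling gave 601 genes lower at 24 hpf and a control MO stage change of 0.52; it lost dnajc19, gchfr and mylpfb and moved the median of all genes by -0.21 at 24 hpf and 0.02 at 48 hpf. No floor gave stage changes of 0.47 and 0.51; a floor of 10 FPKM gave 314 genes lower at 48 hpf and a foxo3b MO stage change of 0.81; leaving out shared loci gave 0.47 in foxo3b MO. The cause of these shifts was not tested.

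The next 3 settings were chosen after seeing the data. A threshold of -1 selected 26 genes, with 224, 366 and 49 lower at 24 hpf, 48 hpf and both, and stage changes of 0.98 and 1.38. With no names left out there were 99 genes, with stage changes of 0.45 and 0.28. Reading the prefixes on current symbols too left 50. No paired analysis was possible because the labels give no replicate numbers and each group has 1 library. The files give no counts, so the depth behind low values is not known.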

Other observations

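Of 37 proteasome genes 0 met the threshold at either stage, beside 357 and 632 of 11088 genes at 24 and 48 hpf, and their summed level was 9631 and 8228 FPKM in foxo3b MO at 24 and 48 hpf, against 9840 and 8137 FPKM in control MO. Of 20 damage response genes none was lower at either stage, while 10 were at 0.8 or above at 24 hpf and 2 at 48 hpf, beside 795 and 417 of the 11088 genes. Their sum was 3881 and 2072 FPKM in foxo3b MO against 880 and 1171 FPKM in control MO, and without ccng1, a cyclin gene, 1570 and 639 FPKM against 531 and 505 FPKM. Pigment cell markers met the threshold for 5 of 17 genes at 24 hpf and for 0 at 48 hpf. Hatching gland markers, of which agr2 was lower at both stages, had 4 of 7 at 0.8 or above at 48 hpf.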
